A study of Homo sapiens with 6 samples.

Results

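The miR-17/92a-1 cluster is a polycistron, 1 long transcript from which 6 miRNA hairpins are cut, and its mature miRNAs were measured in exosomes released by H9 human ES cells. The members were taken by name, as the 10 listed mature products of miR-17, miR-18a, miR-19a, miR-20a, miR-19b-1 and miR-92a-1 among the 2549 human miRNAs of the array, by a rule that used no measured value. After each array was scaled to its 99th percentile, the 6 guide arms were higher in substate 2 than in substate 1 in each of 3 experiments, whereas with division by the labelled amount of miRNA only, all 6 were higher only in experiment 2, against 0 in the first and 1 in the last experiment. The mean log2 differences of the guide arms lay between 0.44 for miR-92a-3p and 0.96 for miR-19a-3p. None of the 9 tested members passed the test, and the smallest adjusted p among them was 0.241 (limma, with Benjamini-Hochberg adjustment over all 474 tested miRNAs).

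A miRNA hairpin gives a 5p and a 3p arm, of which the guide arm is loaded into an Argonaute protein and the passenger arm is mostly degraded. The seed of the guide, the bases near its 5′ end, pairs with sites in mRNAs that are then repressed, so that miRNAs with a common seed share most of their targets. The cluster, also known as oncomiR-1, is switched on by MYC, is abundant in dividing cells such as ES cells and many tumours, and promotes proliferation and survival. Known targets are CDKN1A and E2F1 for the miR-17 seed and BCL2L11, which encodes the cell death protein BIM, for the miR-17 and miR-92 seeds.

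The mature sequences below show how the 10 members group by seed, which is the base of the comparisons that follow. They are written 5′ to 3′ with bases 2 to 8, the seed, in capitals, and come from RefSeq on the build GRCh38.p14, in which 10 of 10 members were found. The first pair, from chr13:91350618-91350640 and chr13:91351072-91351094, are the guide arms with the miR-17 seed.

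hsa-miR-17-5p: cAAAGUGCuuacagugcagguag

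hsa-miR-20a-5p: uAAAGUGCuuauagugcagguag

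The guide arm with the miR-18 seed lies at chr13:91350756-91350778. Within the seed it differs from miR-17-5p by the substitution A4G, with positions counted from 1 at the 5′ end and the base of miR-17-5p first.

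hsa-miR-18a-5p: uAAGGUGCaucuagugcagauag

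The guide arms with the miR-19 seed are 3p arms, at chr13:91350939-91350961 and chr13:91351245-91351267, and differ from each other at 1 of 23 bases (U11C, from miR-19a-3p to miR-19b-3p).

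hsa-miR-19a-3p: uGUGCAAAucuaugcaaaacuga

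hsa-miR-19b-3p: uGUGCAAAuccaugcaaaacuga

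The last guide arm, with the miR-92 seed, is also a 3p arm and lies at chr13:91351361-91351382. It has the highest share of G and C among the guides, 54.5% against 34.8% for miR-19a-3p.

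hsa-miR-92a-3p: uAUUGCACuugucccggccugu

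The other 4 members are passenger arms, at chr13:91350655-91350676, chr13:91350797-91350819, chr13:91351108-91351129 and chr13:91351207-91351229. They are shown because their seeds differ from those of their guides and from each other, so that each stands alone among the 10 members. The seed of miR-19b-1-5p is also that of miR-19a-5p, an arm of the same cluster that is no listed member.

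hsa-miR-17-3p: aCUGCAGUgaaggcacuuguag

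hsa-miR-18a-3p: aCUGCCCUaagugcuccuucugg

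hsa-miR-20a-3p: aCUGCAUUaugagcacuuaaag

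hsa-miR-19b-1-5p: aGUUUUGCagguuugcauccagc

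All of these lie on the plus strand of chromosome 13. The 6 hairpins follow each other in the order miR-17, miR-18a, miR-19a, miR-20a, miR-19b-1 and miR-92a-1 over 787 bases, all within the span of the lncRNA gene MIR17HG, and no other miRNA gene of the RefSeq table lies between them. The hairpin of miR-17, at chr13:91350605-91350688, is shown with its arms in capitals to make the arrangement visible, with the 5p arm first and the loop in lower case between the arms.

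miR-17 hairpin: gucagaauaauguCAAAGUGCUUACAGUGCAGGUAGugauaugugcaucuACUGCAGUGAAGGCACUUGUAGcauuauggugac

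The mature sequences of miR-19b-3p and miR-92a-3p are also encoded by MIR19B2 and MIR92A2 on chromosome X, so the signal of these members cannot be assigned to the cluster alone. miR-17-5p and miR-20a-5p differ at 2 of 23 bases (C1U and C12U, from miR-17-5p to miR-20a-5p). How far the array probes tell such close sequences apart was not tested.

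H9 is an established human ES cell line, and the study asked which exosomal miRNAs differ between its substates. The cells were grown on Matrigel in TeSR-E8 after a change of matrix from Vitronectin XF, and this culture held both substate 1 and substate 2, the latter described by the study as ectoderm-biased. Exosomes were precipitated from the medium, and each of 3 experiments gave 1 array per substate. Substate 1 was taken at passage 41, 46 and 50 and substate 2 at passage 52, 61 and 65 in experiments 1, 2 and 3, so that substate and passage cannot be told apart. In the same order, 72.4, 100.0 and 51.4 ng of miRNA were labelled, with equal amounts for both substates. All arrays came from 1 cell line, and how the substates were kept apart for the collection of the medium is not given in the sources used here. Nothing in the labels says that the experiments came from separately thawed cultures, so the p-values measure the spread between these 3 experiments.

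Between 310 and 594 miRNAs were detected per array, fewest in experiment 3, and 474 were detected on at least 3 of the 6 arrays and tested. The 99th percentile of the total signal, a fluorescence intensity summed over the probes of a miRNA, lay between 125 and 476 units and was lower in substate 2 in each experiment. Of 8 miRNAs that mark ES cells (the miR-302 to miR-367 and miR-371 to miR-373 groups), 5 were detected on all 6 arrays and 1 on none, and their summed signal was 2513 to 5589 units in substate 1 and 1253 to 3408 in substate 2. Of 5 blood cell markers 4 were detected on no array, and the 3 muscle markers, the liver marker and the 4 let-7 miRNAs, common in differentiated cells, were also detected on none. The neuron marker miR-124-3p was detected on all 6 arrays, at 3.60 to 7.46 units in substate 1 and 3.23 to 9.15 units in substate 2, and the other neuron marker, miR-9-5p, on none. After scaling to the 99th percentile, the log2 differences of miR-124-3p were 0.38, 0.99 and 0.37 (mean 0.58, adjusted p = 0.215, limma), higher in substate 2 in all 3 experiments with no overlap of the groups, while the 5 tested ES cell markers had a median difference of -0.33. By these values miR-124-3p went in the same direction as the cluster members described below, and the median of the ES cell markers in the other. Among the ES cell markers miR-367-3p had a mean above 0, at 0.21. In experiment 2 all 5 were higher in substate 2, by 0.17 to 1.02. The part of these markers in the differences of the members was not tested.

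The 6 guide arms were detected on all 6 arrays, and no spot of any member was saturated. Their levels are given as a percentage of the 99th percentile of the same array, in the order of experiments 1, 2 and 3. With vesicles precipitated from medium, fewer vesicles of a kind and less miRNA in each cannot be told apart.

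Of the guides with the miR-17 seed, which act on cell cycle mRNAs, miR-17-5p had a level of 98.97%, 87.3% and 110% in substate 1 and of 128%, 197% and 140% in substate 2. Every substate 2 array lay above every substate 1 array, with the array of experiment 2 far above the rest. The log2 differences within experiments were 0.38, 1.18 and 0.35, with a mean of 0.63 ± 0.47 (SD, n = 3), a 95% interval of -0.10 to 1.37 and an adjusted p of 0.241 (limma).

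Its close relative miR-20a-5p had a level of 126%, 96.0% and 138% in substate 1 and of 150%, 234% and 166% in substate 2. The groups again did not overlap, and again experiment 2 held both the lowest and the highest array. The mean log2 difference was 0.60 ± 0.59 (SD, n = 3), from 0.25, 1.29 and 0.27 in the 3 experiments.

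The single guide with the miR-18 seed, miR-18a-5p, had a level of 16.02%, 12.8% and 18.7% in substate 1 and of 16.5%, 31.9% and 23.1% in substate 2. The groups overlapped, since the substate 2 array of experiment 1 lay below the substate 1 array of experiment 3. The log2 differences were 0.04, 1.31 and 0.30, and the first of these was smaller than the error of 7.39% to 7.63% that the scanner software gave for each signal of this miRNA.

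The guides with the miR-19 seed had the highest mean differences among the guides. miR-19a-3p had a level of 31.4%, 20.7% and 44.1% in substate 1 and of 42.7%, 83.2% and 59.0% in substate 2. The groups overlapped at the substate 1 array of experiment 3 and the substate 2 array of experiment 1. The log2 differences were 0.45, 2.01 and 0.42, and the mean of 0.96 ± 0.91 (SD, n = 3) corresponded to 1.94-fold, with a 95% interval of -0.41 to 2.33 on the log2 scale and an adjusted p of 0.274 (limma).

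For miR-19b-3p the level was 113%, 91.8% and 158% in substate 1 and 169%, 301% and 211% in substate 2. Here the groups did not overlap, and the substate 2 array of experiment 2 was the brightest. The log2 differences were 0.58, 1.71 and 0.42, with a mean of 0.90 ± 0.70 (SD, n = 3), or 1.87-fold, and an adjusted p of 0.244 (limma).

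The guide with the miR-92 seed, miR-92a-3p, had a level of 120%, 144% and 112% in substate 1 and of 124%, 211% and 185% in substate 2. The groups overlapped, as the substate 2 array of experiment 1 was below the substate 1 array of experiment 2. Its log2 differences of 0.05, 0.55 and 0.72 had another order than those of the other guides, with the highest value in experiment 3 and not in experiment 2. The mean was 0.44 ± 0.35 (SD, n = 3), with a 95% interval of -0.12 to 1.01 and an adjusted p of 0.263 (limma).

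**Figure D1:**
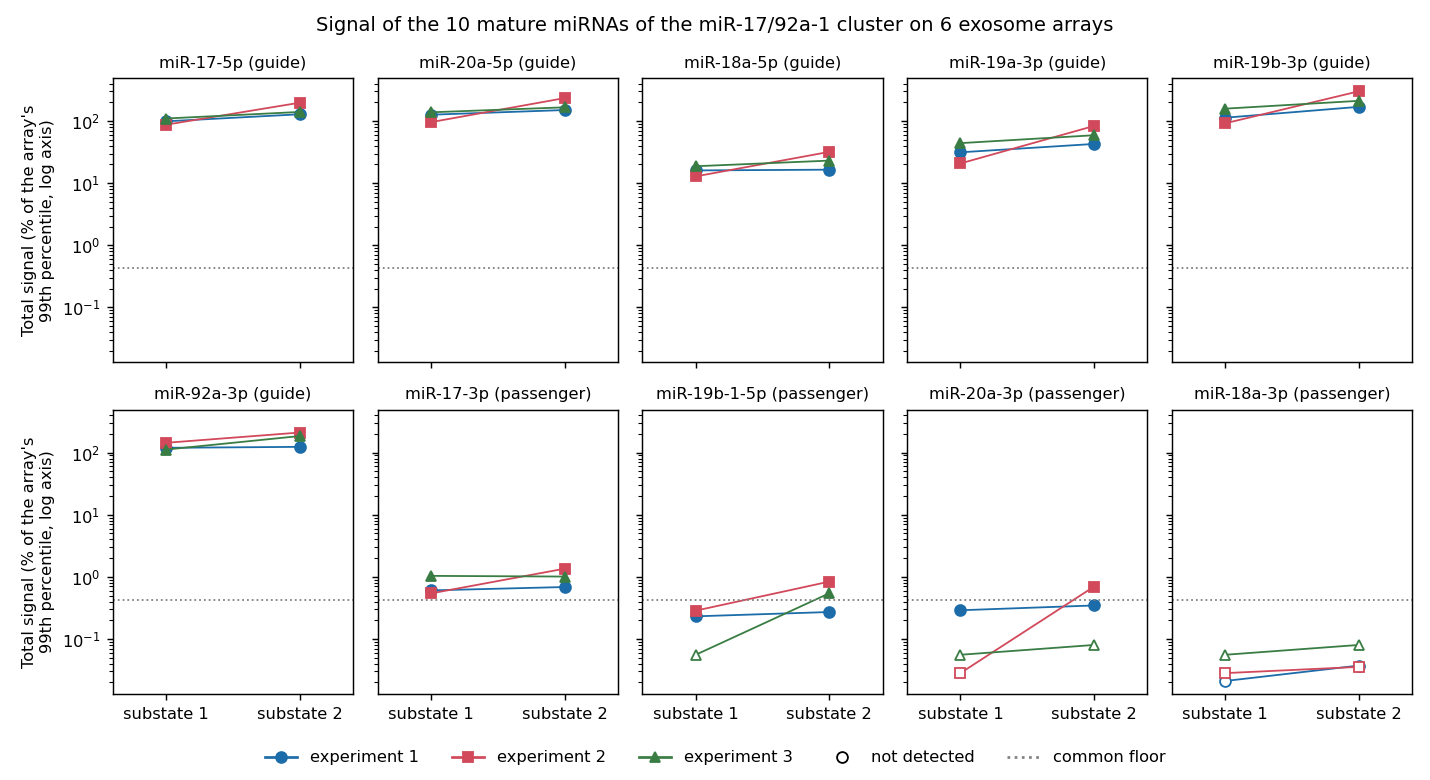
Total signal of each member as a percentage of the array's 99th percentile (log axis) in substate 1 and substate 2, with 1 line per experiment; open symbols mark arrays on which the miRNA was not detected, whose placeholder signals have no order, and the dotted line is the common floor of 0.431%. The guide arms lay between 12.8% and 301%, and the passenger arms at or below 1.35%.

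Among the passenger arms, which are usually degraded, only miR-17-3p lay above the common floor on all 6 arrays. This floor, 0.431% of the 99th percentile, was the lowest detected signal of the substate 2 array of experiment 3, the array on which this value was highest, and lower values were set to it before the test. The level of miR-17-3p was 0.605%, 0.541% and 1.04% in substate 1 and 0.686%, 1.35% and 1.01% in substate 2. The groups overlapped and the direction was not the same in all experiments, with log2 differences of 0.18, 1.32 and -0.04. The scanner software's error was between 12.6% and 25.2% of the signal for this arm, and 1 of its 2 probes carried all of the detected signal.

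The passenger arm miR-19b-1-5p was detected on 5 of 6 arrays and lay above the floor on 2 of them, at 0.837% in substate 2 of experiment 2 and 0.543% in substate 2 of experiment 3. Its total signal was 1.1, 1.01 and 0.1 units in substate 1, where the last value is the placeholder for an undetected miRNA, and 0.729, 2.36 and 0.679 units in substate 2. The total adds only those probes that passed detection. The brightest probe alone gave 1.1, 1.01 and 0.526 units in substate 1 and 0.729, 1.83 and 0.679 units in substate 2, and the log2 differences of that probe, scaled like the total, were 0.23, 1.18 and 0.89.

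miR-20a-3p, the passenger arm of miR-20a, was detected on 3 arrays, at 1.38 units in substate 1 and 0.930 units in substate 2 of experiment 1 and at 1.96 units in substate 2 of experiment 2. Only the last of these was above the floor, so the fit saw a difference in experiment 2 alone. Its brightest probe, passing detection or not, gave 1.38, 0.611 and 0.582 units in substate 1 and 0.930, 1.96 and 0.563 units in substate 2, with scaled log2 differences of 0.26, 2.01 and 0.48. The last passenger arm, miR-18a-3p, was detected on no array and was not tested. Its probe signals lay between -0.17 and 0.148 units and none exceeded 1.26 times its own error. The other arms of the cluster, miR-19a-5p and miR-92a-1-5p, were on the array and were detected on none of the 6 arrays.

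The arms of 1 hairpin could therefore be compared for miR-17 alone. The log2 difference between substates of miR-17-5p minus that of miR-17-3p was 0.20, -0.15 and 0.39 in the 3 experiments, with a mean of 0.15 ± 0.27 (SD, n = 3). The arms did not differ beyond this spread, and with 3 experiments the exact sign-flip test cannot give a two-sided p below 0.25.

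None of the 9 tested members was called. A call required that the adjusted p was under 0.05 and that the substates differed 2-fold or more. Over all 474 tested miRNAs limma called 0% as higher and 0% as lower in substate 2, with 0.139 as the smallest adjusted p. The study applied a paired test only after a choice of miRNAs with a 2-fold difference. A procedure of this kind was also run on the values used here, with adjustment over the chosen miRNAs only. It called 0 miRNAs, and no member was among those chosen. At an unadjusted p under 0.05, 9.7% of the tested miRNAs were higher and 13.3% lower, and 0 members were among them. Mean differences of at least 2-fold were found for 4.85% of the tested miRNAs upwards and 4.64% downwards, again with 0 members.

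Most members were alike in direction. Higher in all 3 experiments were 6 of the 9 tested members, all of them guide arms, against 21.1% of all tested miRNAs, and this count was 5 with quantile normalization and 0 with the labelled amount only. It was 7 with the lower floor, 8 with signals under 1 set to 1, with per-spot signals or with the deposited log2 values, and 9 with normexp, where passenger arms were counted too. The share of 21.1% belongs to the main setting and is not given for the others, so these counts have no background beside them. By experiment, the median of all tested miRNAs was 0.40, 0.24 and 0.35 with normexp and -0.90, -0.27 and -0.14 with the labelled amount only. Lower in all 3 experiments were 0 members against 23.4% of all tested miRNAs. Since values at the floor cannot differ, the same count was taken over the 289 miRNAs detected on all 6 arrays, where 30.1% were higher throughout and 6 of the 7 members were. The substates did not overlap for 3 members, miR-17-5p, miR-19b-3p and miR-20a-5p, all with substate 2 above substate 1, against 11.8% of the tested miRNAs. Substate 2 lay below substate 1 on every array for 14.1% of the tested miRNAs and for 0 members. The members come from 1 transcript and are no independent observations.

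The median log2 difference of the 9 tested members was 0.55, against -0.01 for all tested miRNAs. By experiment the members' median was 0.18, 1.29 and 0.33 and that of all tested miRNAs -0.04, 0.00 and 0.00. The guide arms lay between 0.04 and 0.58 in experiment 1, between 0.55 and 2.01 in experiment 2 and between 0.27 and 0.72 in experiment 3. Experiment 2 thus carried most of the difference, and without it the members' median was 0.26, against 0.76 without experiment 1 and 0.75 without experiment 3.

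**Figure D2:**
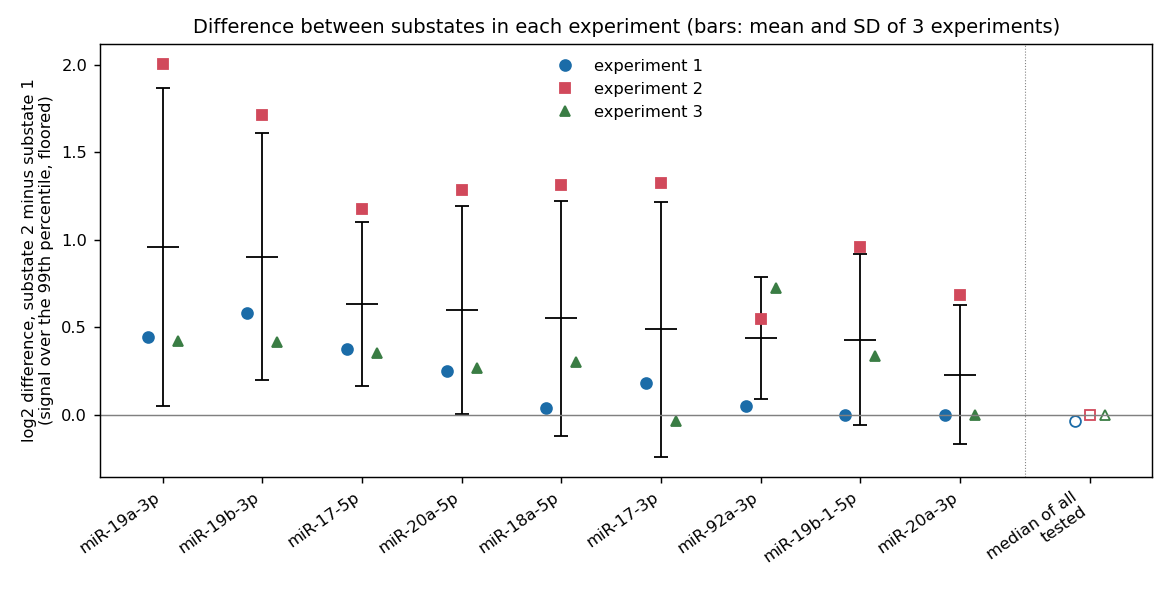
Log2 difference (substate 2 minus substate 1) of each tested member in experiments 1, 2 and 3 (symbols), with the mean and SD of the 3 experiments (bars) and, at the right, the median of all 474 tested miRNAs. The squares of experiment 2 are the highest for every member but miR-92a-3p, and the medians of all tested miRNAs lie at or just under 0.

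In the order of their mean differences, the members ran from miR-19a-3p over miR-19b-3p, miR-17-5p, miR-20a-5p, miR-18a-5p, miR-17-3p, miR-92a-3p and miR-19b-1-5p to miR-20a-3p. The places of both passenger arms at the end depended on the floor, since with a floor at the lowest detected signal of any array the difference was 0.97 for miR-20a-3p and 1.36 for miR-19b-1-5p, and in the deposited log2 values 1.73 and 1.92, above those of all guides. The largest of the 8 steps between neighbours was 0.27, from miR-19b-3p to miR-17-5p, and each step was smaller than the SD of both of its neighbours. By seed, the mean was 0.93 ± 0.80 for the miR-19 pair, 0.62 ± 0.53 for the miR-17 pair, 0.55 ± 0.67 for miR-18a-5p and 0.44 ± 0.35 for miR-92a-3p (SD, n = 3 experiments). The order of the hairpins in the transcript was another one, since the miR-19 arms come from the third and the fifth hairpin.

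Because the scaling of an array cancels in a ratio of 2 miRNAs of that array, the guides were also compared in 15 pairs, by the difference between their log2 differences. In 6 pairs the sign was the same in all 3 experiments, and these were miR-19a-3p and miR-19b-3p each over miR-17-5p, miR-18a-5p and miR-20a-5p. The steadiest of them was miR-19b-3p over miR-20a-5p, with 0.33, 0.43 and 0.15 and a mean of 0.30 ± 0.14 (SD, n = 3). For miR-19a-3p over miR-17-5p the values were 0.07, 0.83 and 0.07, so that experiment 2 stood alone.

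All pairs with miR-92a-3p changed sign between experiments. For miR-19b-3p over miR-92a-3p the values were 0.53, 1.16 and -0.30, and for miR-20a-5p over miR-92a-3p they were 0.20, 0.74 and -0.46. In these pairs 2 of the 3 values were more than 2 times the combined error that the scanner software gave, an error that leaves out the spread between experiments. Among the 6 pairs of constant sign, miR-19b-3p over miR-20a-5p had 0 values past that limit and the others had 1 each. The 6 pairs of constant sign had a two-sided p of 0.25 in the exact sign-flip test, the smallest that 3 experiments allow, and adjustment over the 15 pairs cannot lower it.

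The 2 or 3 probes of a guide gave differences that lay within 0.17 of each other in every experiment. The widest range was that of the 3 probes of miR-17-5p in experiment 1, and the narrowest, 0.00838, that of miR-19a-3p in experiment 2. In experiment 2 the guides as a group ranged from 0.55 to 2.01, but miR-20a-5p and miR-18a-5p differed by 0.03, less than the 0.124 between the probes of miR-17-5p.

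The cluster has paralogs, copies that arose by duplication, of which the miR-106a to miR-363 cluster on chromosome X and the miR-106b to miR-25 cluster on chromosome 7 were compared. The miR-106a to miR-363 cluster was not covered in full, and a guide arm with the miR-17 seed that belongs to it was not analysed here and is missing from its median and from the seed group below. Of its 9 miRNAs analysed here, 4 were tested, and all 4 were higher in substate 2 in all 3 experiments, with medians of 0.49, 1.41 and 0.61 by experiment. Of 6 miRNAs of the miR-106b to miR-25 cluster 5 were tested and 4 were higher throughout, with medians of 0.19, 0.52 and 0.32. The remaining tested miRNA, miR-93-3p, lay above the floor on 0 arrays. Its differences were thus fixed at 0, it could not be counted as higher, and the medians include it. The median of the mean differences of the tested miRNAs was 0.85 for the first cluster and 0.31 for the second, against 0.55 for the miR-17/92a-1 members. In experiment 2, where the clusters lay farthest apart, the miR-17/92a-1 members with 1.29 were nearer to the miR-106a to miR-363 cluster. These clusters were not tested against each other.

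The paralogs nearest in sequence to a member are printed for comparison with it. From chromosome X, miR-20b-5p lies at chrX:134169850-134169872 and miR-18b-5p at chrX:134170084-134170106 on the minus strand, and miR-18b-5p differs from miR-18a-5p at 1 base (A20U).

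miR-20b-5p: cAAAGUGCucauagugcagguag

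miR-18b-5p: uAAGGUGCaucuagugcaguuag

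The mean log2 difference of miR-18b-5p was 0.88 (0.18, 1.75 and 0.71), and that of miR-18a-5p 0.55 (0.04, 1.31 and 0.30). For miR-20b-5p, which differs from miR-20a-5p at 2 bases, the mean was 0.77 against 0.60 for miR-20a-5p. Compared within experiments, miR-18b-5p exceeded miR-18a-5p by 0.14, 0.44 and 0.41 (mean 0.33 ± 0.16, SD, n = 3) and miR-20b-5p exceeded miR-20a-5p by 0.21, 0.06 and 0.25 (mean 0.17 ± 0.10). The copy from chromosome X thus had the higher difference in every experiment in both pairs, with a two-sided p of 0.25 in the exact sign-flip test, the smallest that 3 experiments allow. The scanner software's error per signal was 7.17% to 7.24% for miR-20b-5p, 7.52% to 7.67% for miR-20a-5p, 6.28% to 6.52% for miR-18b-5p and 7.39% to 7.63% for miR-18a-5p. These errors were not set against the pair differences, and how far the probes tell such close sequences apart was not tested.

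Over the whole array, 5 other miRNAs had the seed of miR-17-5p and miR-20a-5p, and 4 of these were tested. The differences of miR-20b-5p, miR-106b-5p and miR-93-5p were 0.77, 0.76 and 0.48, each higher in all 3 experiments like the members. The exception was miR-519d-3p, from the primate miRNA cluster on chromosome 19 (chr19:53713400-53713421, plus strand), which was singled out after its values were seen. It has the seed of miR-17-5p and differs from it at 9 of 22 positions, all of them outside the seed.

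miR-519d-3p: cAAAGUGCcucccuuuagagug

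Its level was 1.31%, 1.195% and 1.51% in substate 1, and in substate 2 it was at 0.437%, below the floor at 0.419% and not detected in experiments 1, 2 and 3. The groups did not overlap, and the log2 difference was -1.58 in experiment 1. In experiments 2 and 3 the substate 2 value was set to the floor, so that the values of -1.47 and -1.80 there depend on the floor and give no exact size. As the choice was made on these values, they are given with no test. It was the only tested miRNA with this seed that was lower in substate 2.

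The miR-18 seed was found in miR-18b-5p, described above, and in miR-4735-3p, which was not detected. No other array miRNA in the RefSeq table had the miR-19 seed. The miR-92 seed was shared by 5 others, of which 4 were tested and are printed here to set them beside miR-92a-3p. In the order printed they lie at chr7:100093571-100093592, chrX:134169382-134169403, chr4:112647877-112647898, all on the minus strand, and chr1:155195237-155195258 on the plus strand.

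miR-25-3p: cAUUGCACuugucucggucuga

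miR-363-3p: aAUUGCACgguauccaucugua

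miR-367-3p: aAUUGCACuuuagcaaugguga

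miR-92b-3p: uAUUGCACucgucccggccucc

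Of these, miR-92b-3p is the closest to miR-92a-3p, with 3 of 22 bases changed, and it had differences of 0.33, 0.68 and 1.26, which were highest in experiment 3 as for miR-92a-3p. miR-363-3p had 0.72, 1.38 and 0.75 and miR-25-3p 0.08, 0.52 and 0.35, both highest in experiment 2. miR-367-3p, encoded in the miR-302 to miR-367 cluster of pluripotent cells, had -0.37, 1.02 and 0.00 and was the only one of the 4 that was not higher throughout.

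**Figure D3:**
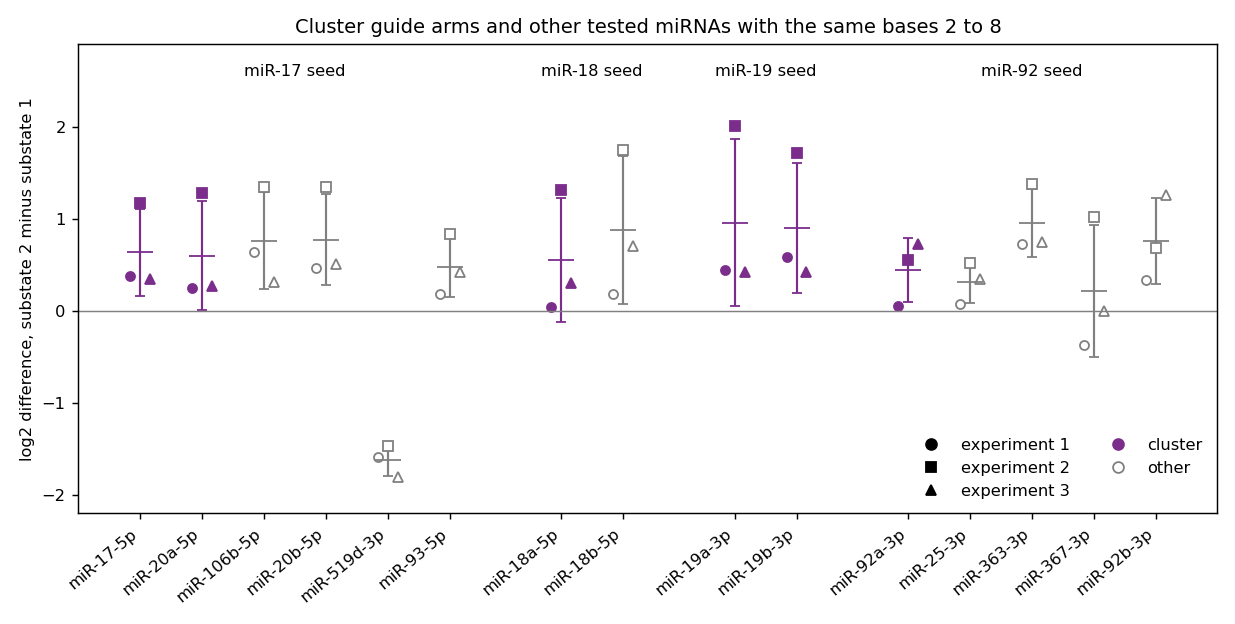
Log2 difference (substate 2 minus substate 1) in experiments 1, 2 and 3 (circles, squares and triangles) with the mean and SD (bars) for the guide arms of the cluster (filled, purple) and other tested miRNAs with the same bases 2 to 8 (open, grey), by seed. All filled symbols lie above 0, and miR-519d-3p, whose mean of -1.62 rests on floor values in experiments 2 and 3, is the only miRNA with a mean below 0.

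The pattern of the cluster over the 6 arrays was described by the mean log2 level of its 7 members detected on all of them. The members' own correlations with this mean were 0.9899 for miR-19b-3p, 0.987 for miR-18a-5p, 0.984 for miR-19a-3p, 0.979 for miR-20a-5p, 0.977 for miR-17-5p, 0.929 for miR-17-3p and 0.736 for miR-92a-3p. Of 274 other miRNAs detected on all 6 arrays and outside the paralogous clusters, those most like it were miR-148b-3p and miR-16-5p (both 0.991), miR-124-3p (0.976), miR-130a-3p (0.972) and miR-301a-3p (0.970). The points are 6 arrays with a common scaling per array, 1 of which, substate 2 of experiment 2, was high for most members. These values are a description with no test.

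The direction of the members depended on how the arrays were made comparable. The total signal of miR-17-5p, before any scaling, was 470.7, 310.1 and 197.5 units in substate 1 and 345.2, 556.5 and 175.1 units in substate 2, so that substate 2 was lower in experiments 1 and 3. For miR-19b-3p it was 537.7, 325.8 and 284.4 units against 454.2, 847.2 and 264.3 units. With division by the labelled amount only, 0 of 6 guides were higher in substate 2 in experiment 1, 6 in experiment 2 and 1, miR-92a-3p, in experiment 3.

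Under that division the members' median was 0.07 and that of all tested miRNAs -0.51, so that the members stood 0.59 above the rest, as against 0.56 with the 99th percentile. By experiment the members stood 0.33, 1.25 and 0.04 above all tested miRNAs, against 0.22, 1.29 and 0.33 with the 99th percentile. The small step in experiment 3 was not particular to this division. It was 0.03 when signals under 1 were set to 1 without a common floor, 0.05 in the deposited log2 values and -0.02 with normexp, and it was 0.28 among the miRNAs detected on all 6 arrays with the 99th percentile. With the 75th percentile the members' median was 0.57 and with quantile normalization 0.53, beside medians of all tested miRNAs of 0.00. Under quantile normalization 5 of 6 guides were higher in experiment 2, where miR-92a-3p had a difference of 0.00. Slide 1 held experiment 1 and slide 2 held experiments 2 and 3, with both substates on each slide, and the difference was of 1 direction on both for all 6 guides after scaling.

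**Figure D4:**
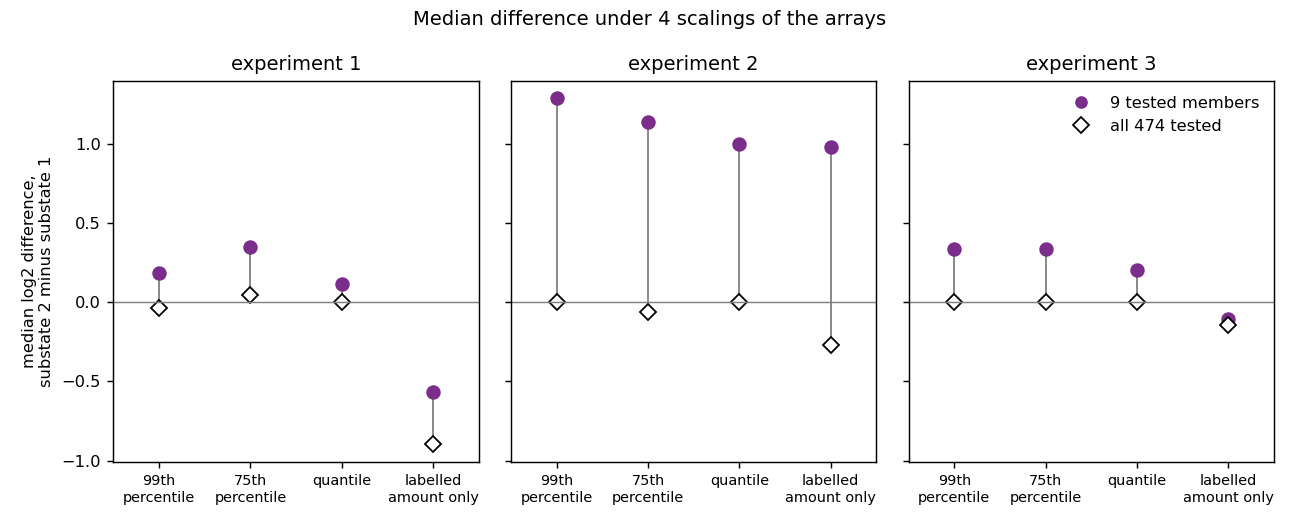
Median log2 difference (substate 2 minus substate 1) of the 9 tested members (filled circles) and of all 474 tested miRNAs (open diamonds) under 4 scalings of the arrays, in 1 panel per experiment. With the labelled amount only, both medians fell below 0 in experiments 1 and 3, and the members stayed above all tested miRNAs by 0.33, 1.25 and 0.04 in experiments 1, 2 and 3, where the last step was also near 0 under some settings that kept the 99th percentile.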

How the data were processed

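The authors scanned 6 Agilent SurePrint G3 human miRNA arrays and deposited intensity values from Feature Extraction (12.0.3.2 for experiment 1, 11.5.1.1 for experiments 2 and 3), with a total signal, its error and a detection mark per miRNA, not normalized between arrays. A table of log2 signals processed by the authors was also deposited. Per the study's methods, GeneSpring set signals under 1 to 1, scaled each array to its 99th percentile without baseline transformation and corrected exosome signals to 1 ng. Columns holding the authors' own comparisons (ratios and p-values) were not used.

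Here total signals were divided by the 99th percentile over the 2549 human miRNAs, raised to a common floor of 0.431% and log2-transformed. limma 3.58.1 (R 4.3.3, lmFit and eBayes, two-sided) was fitted with experiment as a block to the 474 miRNAs with detection on 3 or more arrays. Calls required an adjusted p under 0.05 and a 2-fold difference. Arrays were paired by the experiment numbers of the labels, as in the study's paired test, and deviations from the substate means correlated by 0.674, 0.0307 and 0.517 in experiments 1, 2 and 3. The fit was tested on simulated data.

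Members, lists and tests were chosen with earlier results of these data known. Named were all members, the other arms of the cluster, paralogs and miRNAs with a member's seed (values for those detected on all arrays), and the 5 miRNAs whose levels correlated most with the members' mean. RefSeq held a mature sequence for 2248 of the 2549 miRNAs. No depth applies to arrays, and their number limits the precision. In all 17 alternatives were run, covering scaling, floor, background correction, signal summary, filters, block, test and each experiment left out. Normexp was run on median spot intensities in place of the planned means.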

Additional observations from a re-analysis of the deposited data

How the results depend on the processing

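None of the members was called under any of the 17 alternatives. The number of called miRNAs, 0 in the report, was 3 with normexp, 7 among miRNAs detected on all 6 arrays and 1 with no replicate block, and 0 under the others. With the labelled amount only, 0 members were higher in all experiments, the mean was 0.0573 for the miR-17 seed and -0.119 for the miR-92 seed, and the differences of miR-17-3p (-0.0718), miR-18a-5p (-0.00916) and miR-92a-3p (-0.119) reversed, while the median of all tested miRNAs was -0.51. The difference between the arms of miR-17 was 0.47 with quantile normalization. There miR-17-3p differed between substates by 0.00, 0.31 and 0.06 in experiments 1, 2 and 3, against 0.18, 1.32 and -0.04 in the main fit. The cause was not tested. With normexp, 9 of 9 members had an unadjusted p under 0.05 (limma), as had 354 of all 474 tested miRNAs. The smallest adjusted p of a member was then 0.00631 (limma), with none at 2-fold. The median of all tested miRNAs was 0.33 under normexp, so that the members stood 0.20 above it.

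Leaving out 1 experiment gave a members' median from 0.26 (without experiment 2) to 0.76 (without experiment 1), and 6 to 7 members higher in all remaining experiments. The share of all tested miRNAs higher in the remaining experiments is not given beside this count. Without the block, the members' median was 0.55 as before, 0 members were called and the smallest adjusted p of a member was 0.169 (limma), so that the pairing changed no call of a member. The slide as a block called 0 miRNAs. Values under the floor, which covers most passenger-arm signals, have no order, and 3 experiments limit the precision of every difference.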
